A study of Mus musculus with 8 samples.

Results

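The neurotrophins and their receptors were followed here as 5 genes, taken by name: the ligands *Bdnf* and *Ntf3* and the receptors *Ntrk2*, *Ntrk3* and *Ngfr*. All 5 were listed among the 46517 genes of the bulk RNA-seq files and among the 24051 genes of the snRNAseq matrices. Neurotrophins are secreted growth factors that keep neurons alive and shape their dendrites and synapses. BDNF acts mainly on the receptor tyrosine kinase TrkB, the product of *Ntrk2*, and neurotrophin-3, the product of *Ntf3*, acts mainly on TrkC, the product of *Ntrk3*. The p75 receptor encoded by *Ngfr* binds all neurotrophins and their uncleaved proforms, and in the hippocampus BDNF is known above all as a factor made by excitatory neurons in response to activity.

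The study compared the hippocampus of adult mice that lack *Wls*, the cargo receptor that carries Wnt proteins to the cell surface, in the cells made by *Gfap*-Cre-expressing progenitors. Mutants were *Gfap*-Cre;*Wls*fl/- and controls were *Gfap*-Cre;*Wls*fl/+, so both genotypes carried Cre and a recombined cell of a control kept 1 copy of *Wls*. Each library came from both hippocampi of a single mouse, with 2 mutant and 2 control libraries for bulk RNA-seq and again for snRNAseq, all from mice labelled male. Cre driven by *Gfap* recombines in neural progenitors and their neurons as well as in astrocytes.

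Bulk libraries held 56002381 to 79576196 expected counts. The snRNAseq libraries held 5304 and 10460 nuclei in mutants and 6469 and 7192 in controls, with 26307081 to 76486132 UMIs, and any 2 libraries shared 8 to 21 cell barcodes. *Wls* was at 2.61 and 5.44 TPM in the mutant bulk libraries and at 10.5 and 10.1 TPM in the controls (log2 fold change -1.31, edgeR FDR 0.117). The bulk libraries of replicate 2 did not match the male label: *Xist* was at 101 TPM in the mutant and 175 TPM in the control, and the Y-linked *Ddx3y* was at 0.17 and 0.30 TPM, against 0.35 and 0.12 TPM of *Xist* and 28.9 and 30.9 TPM of *Ddx3y* in replicate 1. Dentate granule cells were labelled in 90 and 463 mutant nuclei against 2336 and 2007 control nuclei. The summed TPM of 4 dentate granule markers in bulk was likewise 20.9 and 15.2 in mutants against 127 and 131 in controls, while 4 choroid plexus markers summed to 1101 and 9027 TPM in mutants against 170 (169.67) and 72.2 TPM in controls. In bulk tissue, fewer cells of a type and less RNA per cell cannot be told apart. The paper reports that most granule cells left in mutants lie in the ventral dentate gyrus, with nearly all dorsal ones missing. The part of this in the granule cell values of any gene here was not tested.

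The promoters of the 2 ligands were read for the letters of 2 kinds of site: those of CREB, a known regulator of *Bdnf*, and those of TCF/LEF, the nuclear end of Wnt signalling. The 250 bases before each RefSeq transcript start (GRCm38.p6) were searched on both strands for the CRE TGACGTCA, its variant TCACGTCA, known from *Bdnf*, and the TCF/LEF words ATCAAAG and TTCAAAG. The 5 genes have 11 such windows in all, none of them for *Ntrk3*. TCACGTCA was found in 1 of the 7 windows of *Bdnf*, at chr2:109692186-109692435 on the plus strand, where its first base lies 38 bases before the start. It stands in 115 of the 32851 windows of all genes, or 0.350%. TTCAAAG was found, as its reverse complement, in 1 of the 2 windows of *Ntf3*, at chr6:126164961-126165210 on the minus strand, and stands in 4.46% of all windows. TGACGTCA (1.55% of windows) and ATCAAAG (3.21%) were in none of the 11. These are matches of letters, with no binding data in these files. The windows are shown 5′ to 3′ on the strand of the gene, with the matching letters in capitals.
Bdnf: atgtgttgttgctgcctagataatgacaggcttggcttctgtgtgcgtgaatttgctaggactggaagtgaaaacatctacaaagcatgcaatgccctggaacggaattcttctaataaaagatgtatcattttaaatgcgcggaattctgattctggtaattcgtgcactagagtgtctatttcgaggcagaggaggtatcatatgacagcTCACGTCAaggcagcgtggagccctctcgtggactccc
Ntf3: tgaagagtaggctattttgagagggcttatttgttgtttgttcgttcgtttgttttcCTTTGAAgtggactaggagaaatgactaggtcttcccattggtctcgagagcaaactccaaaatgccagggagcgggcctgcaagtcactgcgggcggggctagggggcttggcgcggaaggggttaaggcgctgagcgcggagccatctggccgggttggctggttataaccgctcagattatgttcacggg

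*Ntf3*, which encodes neurotrophin-3, was the member that changed most in the bulk hippocampus. Its normalised read count was 2.63 and 2.72 CPM in the mutants against 8.10 and 7.36 CPM in the controls, and the groups did not overlap. The gene (ENSMUSG00000049107, chr6:126101412-126166910, mm10, minus strand, with no annotated gene overlapping it) rested on 155 and 216 expected counts in mutants and 457 and 494 in controls. The difference was a log2 fold change of -1.53 (SE 0.145, edgeR FDR 0.0244), or 65.4% lower. *Ntf3* passed FDR below 0.05 in the fit of 20687 genes, as did 1.21% of them, but at a fold of 2.89 by edgeR it lay under the 3-fold limit the study set for bulk data. Its mean was 4.11 TPM in mutants and 12.6 TPM in controls. The study applied this limit with EBSeq, which was not run here. None of the 5 members passed that limit together with the FDR, against 0.218% of genes tested. By DESeq2 likewise 0 of 5 passed both, although 2 of 5 passed the FDR, *Ntf3* and *Ntrk2*, among 1590 genes in all, beside 250 by edgeR. The FDR of *Ntf3* became 0.201 without control replicate 1 and 0.248 without control replicate 2, at log2 fold changes of -1.46 and -1.60, and 0.0602 with the replicate number as a block.

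*Bdnf* (ENSMUSG00000048482, chr2:109674700-109727007, plus strand) had more reads than *Ntf3* and differed less. Per length its control mean was 25.2 TPM, against 12.6 TPM for *Ntf3*. *Bdnf* was at 36.1 and 39.8 CPM in the mutants and 47.6 and 44.7 CPM in the controls, a log2 fold change of -0.28 (SE 0.0757, edgeR FDR 0.153). Both mutant values were below both control values, yet the difference did not pass the test. An annotated antisense gene, Gm45346, overlaps *Bdnf*, and although library preparation kept the strand, the strand setting of the counting is not given in the sources used here.

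Among the receptors, *Ntrk2* (ENSMUSG00000055254, chr13:58806569-59133970, plus strand) was at 668 and 656 CPM in mutants against 578 and 577 CPM in controls (log2 fold change 0.20, SE 0.0506, FDR 0.141). The gene for TrkB was thus read slightly higher in both mutants, without passing the test by edgeR. By DESeq2 the same difference had an FDR of 0.00598. *Ntrk3* (ENSMUSG00000059146, chr7:78175959-78738012, minus strand), for TrkC, was at 58.9 and 53.6 CPM against 63.6 and 63.3 CPM (log2 fold change -0.17, SE 0.062, FDR 0.23). *Ngfr* (ENSMUSG00000000120, chr11:95568818-95587735, minus strand), for p75, was near the lower end of detection, at 1.75 and 2.36 CPM in mutants and 1.45 and 1.16 CPM in controls (log2 fold change 0.66, SE 0.256, FDR 0.26). None of these 3 passed the test with edgeR, and *Ntrk2* and *Ntrk3* are each overlapped by other annotated genes on both strands.

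All 5 members had groups that did not overlap and an unadjusted p below 0.05, 3 of them lower and 2 higher in mutants. Of all genes tested, 51.1% did not overlap, 9.94% had such a p and were lower, and 8.86% had one and were higher. An exact permutation test of 2 against 2 mice gave p = 0.333 (two-sided) for each member, the smallest it can give. Since no groups overlapped, each difference had the same sign within replicate 1 and within replicate 2, that is, also within the pair of libraries with *Xist* reads and the pair without. Compared per length, control levels ran from *Ntrk2* at a mean of 159 TPM through *Ntrk3* at 55.3 TPM, *Bdnf* at 25.2 TPM and *Ntf3* at 12.6 TPM to *Ngfr* at 0.81 TPM, and no control values of neighbours in that order overlapped.

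**Figure D1:**
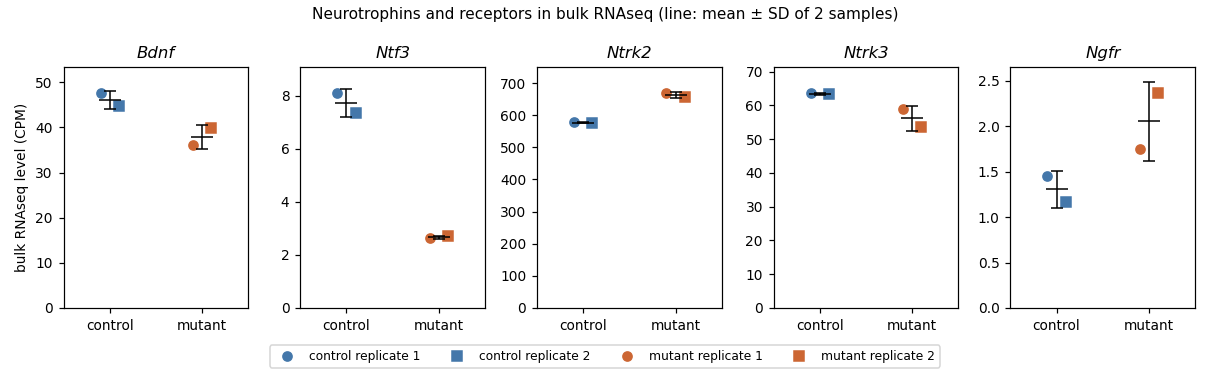
Normalised read count (CPM, linear axes from 0, a separate scale for each gene) of the 5 members in each bulk library, with circles for replicate 1, squares for replicate 2, and bars for the mean and SD of the 2 mice of a genotype. *Ntf3* lies at 2.63 and 2.72 CPM in mutants and 7.36 and 8.10 CPM in controls, and the groups of the other members are apart by less of their level.

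In snRNAseq the same direction was seen for both ligands over all nuclei, where 0 of 20575 genes (0%) passed FDR below 0.05 by edgeR. *Ntf3* was at 9.05 and 16.8 CPM in mutants against 30.7 and 27.6 CPM in controls (log2 fold change -1.20, SE 0.286, edgeR FDR 0.205). *Bdnf* was at 33.1 and 23.5 CPM against 53.7 and 47.5 CPM (log2 fold change -0.86, SE 0.218, edgeR FDR 0.216). Neither group pair overlapped, and these were the 2 members with an unadjusted p below 0.05, where 8.49% of all genes had such a p and were lower. By DESeq2, 773 genes and 2 of the 5 members passed the FDR, *Bdnf* at 0.0212 and *Ntf3* at 0.00574. *Ntrk2* (log2 fold change 0.12, SE 0.161) and *Ntrk3* (log2 fold change -0.12, SE 0.146) differed by less than their error, and *Ngfr* gave 76 UMIs in the 4 libraries together.

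Which nuclei held the reads differed by genotype. In controls, dentate granule cells, the excitatory neurons of the dentate gyrus, held 69.8% and 70.3% of the *Ntf3* UMIs, 40.7% and 38.8% of those of *Bdnf*, 40.5% and 38.6% of those of *Ntrk3* and 17.9% and 16.6% of those of *Ntrk2*, beside 29.2% and 26.4% of all UMIs. In mutants they held 14.7% and 24.9% of the *Ntf3* UMIs and 1.57% and 4.48% of all UMIs. The remaining *Ntf3* reads of mutants came mostly from nuclei labelled as inhibitory (40.8% and 29.0% of *Ntf3* UMIs, against 5.94% and 9.05% in controls) and as numbered excitatory clusters (26.9% and 18.3%, against 2.51% and 3.64%). The inhibitory labels include inhibitory neurons 15, with 11 and 37 *Ntf3* UMIs in mutants. In mutants that label held summed inhibitory markers of 20.5 and 30.3 CPM and excitatory markers of 310 and 438 CPM, against its name. Control granule cells thus gave *Ntf3* over double their share of the library, and most mutant *Ntf3* reads came from elsewhere.

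**Figure D2:**
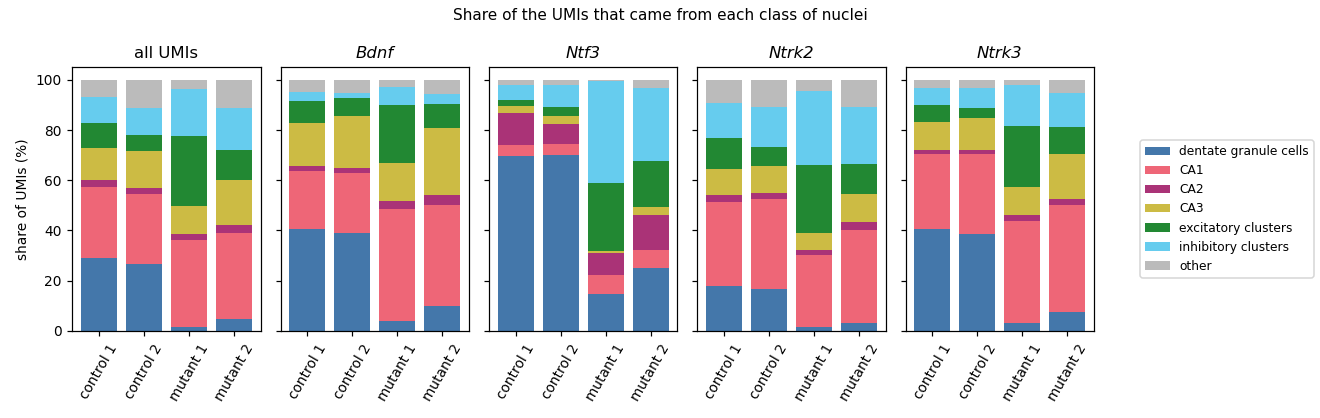
Share (percent, linear axis) of all UMIs and of the UMIs of 4 members that each class of nuclei held, in each snRNAseq library. Dentate granule cells hold 69.8% and 70.3% of the *Ntf3* UMIs in controls and 14.7% and 24.9% in mutants.

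A sum over types was used to change the shares of the types and the levels within them 1 at a time, as arithmetic with no test. With control levels kept and only the shares of the types set to those of the mutants, the level over all nuclei moved by -0.98 on the log2 scale for *Ntf3*, and with control shares kept and only the levels changed it moved by 0.11, beside -1.11 with both. For *Bdnf* the same 3 values were -0.16, -0.40 and -0.84, for *Ntrk2* 0.23, 0.01 and 0.15, and for *Ntrk3* -0.21, 0.15 and -0.10. The 2 parts do not add up to the value with both, and they depend on the genotype kept as the base. Changing the levels moved *Ntf3* from 29.4 to 31.6 CPM with control shares, but from 14.9 to 13.6 CPM with mutant shares. Without granule cell nuclei, the *Ntf3* groups overlapped, at 7.84 and 13.2 CPM in mutants and 13.1 and 11.2 CPM in controls (log2 fold change -0.21, edgeR FDR 0.796), whereas *Bdnf* stayed lower in both mutants, at 32.4 and 22.2 CPM against 44.9 and 39.5 CPM (log2 fold change -0.65, edgeR FDR 0.461). This setting was added after the data had been seen. Neither difference passed the FDR.

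Of the 21 deposited cell type labels, 18 had at least 10 nuclei in every library and were compared by summed UMIs per mouse. In these, 1 of the 55 pairs of member and type that could be tested passed the limits of a 2-fold change and FDR below 0.05, *Ntrk3* in astrocytes, against 0.19% of all pairs of gene and type. Unadjusted p fell below 0.05 in 8 pairs with mutants lower and 6 with mutants higher, and in 4.82% and 4.48% of all pairs of gene and type. Markers went against the names of some labels. Inhibitory neurons 14 held summed endothelial markers of 1194 to 2352 CPM and inhibitory markers of only 276 to 367 CPM. In these nuclei mural markers were at 1399 to 2037.5 CPM, meningeal fibroblast markers at 1240 to 2098 CPM and astrocyte markers at 1014 to 1616 CPM. Inhibitory neurons 12 held inhibitory markers of 1917 to 2105 CPM. Excitatory neurons 19 held meningeal fibroblast markers of 294 to 778 CPM and astrocyte markers of 440 to 1046 CPM. These labels are used below as names only.

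*Bdnf* was highest in excitatory types. In controls it was at 134 and 95.8 CPM in mossy cells, the excitatory neurons of the hilus, at 45.5 and 130 (129.7) CPM in excitatory neurons 10, 85.0 and 76.6 CPM in excitatory neurons 7, 74.9 and 69.8 CPM in granule cells, 70.2 and 65.95 CPM in CA3 and 43.7 and 40.6 CPM in CA1. Values of excitatory neurons 10 overlapped those of the types on either side, and granule cells overlapped CA3. In oligodendrocytes, which are not known for making it, *Bdnf* was at 17.9 and 18.8 CPM, so the levels of excitatory neurons 8 and 13, inhibitory neurons 5 and astrocytes, all between 6.78 and 25.0 CPM, lay in the range around that of such nuclei.

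Mutants were lower in *Bdnf* in 12 of the 12 types where it could be tested, with a median log2 fold change of -0.87, and in none did it pass the FDR. The 12 include oligodendrocytes and the types at levels around theirs, which are astrocytes, inhibitory neurons 5 and excitatory neurons 8 and 13. In mossy cells it was at 85.8 and 33.2 CPM in mutants (log2 fold change -1.24, SE 0.397, edgeR FDR 0.23), from 27 and 89 nuclei against 38 and 32 in controls. In excitatory neurons 7 it was at 39.4 and 26.2 CPM, with every mutant value below every control value (log2 fold change -1.24, SE 0.251, edgeR FDR 0.909). In CA3 it was at 45.9 and 35.1 CPM, again with no overlap (log2 fold change -0.75, SE 0.195, edgeR FDR 0.216). Granule cells, at 79.7 and 51.4 CPM, and CA1, at 42.5 and 27.6 CPM, had overlapping groups. In granule cells the direction turned without mutant replicate 2, to a log2 fold change of 0.10.

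In 6 of the 12 types the unadjusted edgeR p of *Bdnf* was below 0.05 with mutants lower, a share of types to be read against the 4.82% over all genes. Excitatory neurons 8 and 13, with levels around that of oligodendrocytes, were among these 6. Without regard to the test, all values of mutants lay below those of controls in 13 of the 18 types. The same held in 22.7% of the 182213 pairs of gene and type that could be tested. The 2 shares differ in basis, since the 13 include types where *Bdnf* could not be tested. Inhibitory neurons 12, for example, gave 0 and 7 UMIs in mutants and 12 and 10 in controls. Of the 6386 genes tested in those same 12 types, 702 (11.0%) were lower in mutants in all 12, and 233 (3.65%) had such a p in 6 or more. The 12 values come from the same 4 mice and are not independent. Other transcripts moved with it: the summed level of 4 excitatory markers was lower in both mutants in 15 of the 18 types (21.0 to 545 CPM in mutants and 89.2 to 819 CPM in controls), and that of 4 dentate granule markers in 11 of the 17 types other than granule cells. A sum can rest mostly on 1 gene, as the excitatory sum did on *Nrgn* in astrocytes, where the other excitatory markers were not lower without overlap. The part of these markers in the *Bdnf* values was not tested. With the excitatory clusters merged, a grouping added after the data had been seen, *Bdnf* was at 27.2 and 19.5 CPM against 50.1 and 55.7 CPM (log2 fold change -1.14, FDR 0.293).

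**Figure D3:**
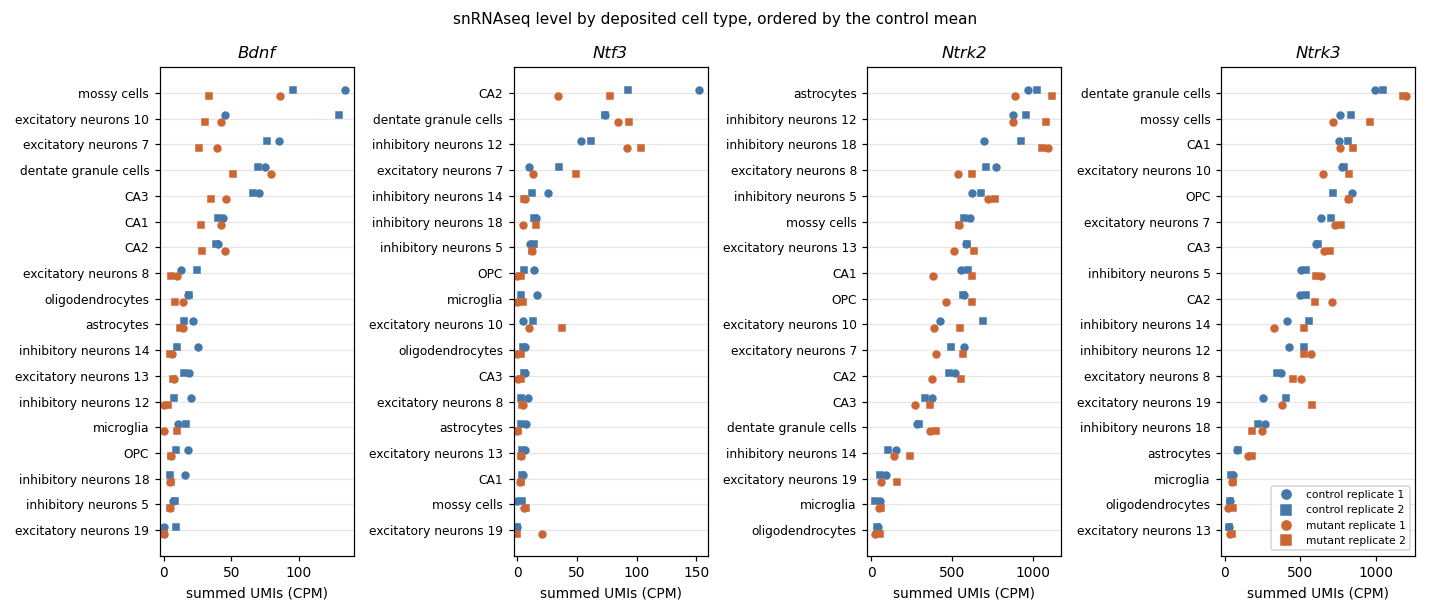
Level of *Bdnf*, *Ntf3*, *Ntrk2* and *Ntrk3* (CPM of summed UMIs, linear axes, a separate scale for each gene) in each of the 18 cell types and each mouse, with types in the order of the control mean. *Ntf3* spans from 0 to a control mean of 122 CPM in CA2, and *Ntrk3* in astrocytes, at 155 and 179 CPM in mutants and 78.7 and 89.7 CPM in controls, is the pair that passed the FDR.

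*Ntf3* was concentrated in few types. In controls it was at 152 and 92.8 CPM in CA2, at 73.3 and 73.5 CPM in granule cells, 53.2 and 62.0 CPM in inhibitory neurons 12 and 9.85 and 35.1 CPM in excitatory neurons 7, with no overlap between neighbours in that order. Next came inhibitory neurons 14, at 25.6 and 11.98 CPM from 6 UMIs in each control, which overlapped excitatory neurons 7, and the other types were at 16.5 CPM or less in both controls. An *Ntf3* UMI was present in 63.4% (95% exact binomial interval 53.2 to 72.7%) and 60.2% (48.9 to 70.8%) of control CA2 nuclei and in 27.6% and 40.5% of control granule cell nuclei. With each nucleus thinned to 1500 UMIs these were 25.7% and 10.8% in CA2 and 9.97% and 9.17% in granule cells, against 1.29% and 0.68% in oligodendrocytes and 0.414% and 0.464% in CA1. The share in CA2 and in granule cells was thus above that in oligodendrocytes, which should lack the gene.

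In mutants, *Ntf3* in granule cells was not lower: it was at 84.5 and 93.4 CPM, above both controls (log2 fold change 0.31, SE 0.173, edgeR FDR 0.416). By the paper, the granule cells left in mutants are mostly ventral, and the part of this in the *Ntf3* value was not tested. The 90 and 463 mutant nuclei of this label held 372 and 390 CPM of dentate granule markers, near the 421 and 401 CPM of controls, 369 and 526 CPM of CA3 markers against 228 and 310 (309.7) CPM, and 396 and 447 CPM of excitatory markers against 764 and 819 CPM. Inhibitory neurons 12 were higher as well, at 91.5 and 103 CPM (log2 fold change 0.80, SE 0.224, edgeR FDR 0.24). CA2 was lower, at 33.9 and 77.5 CPM (log2 fold change -0.94, SE 0.332, edgeR FDR 0.466), as was CA3, at 0.68 and 3.29 CPM against 6.29 and 5.41 CPM (log2 fold change -1.19, FDR 0.364). The mutant nuclei labelled CA2 held less of the CA2 markers, 166 and 184 CPM against 302 and 213 CPM, and more of the CA3 markers, 756 and 900 (900.4) CPM against 465 and 672 CPM, and the part of this in the *Ntf3* value was not tested. No single type passed the FDR for *Ntf3*.

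The genotype effect on *Ntf3* differed between types when tested directly. In a model of all 18 types with a term for each mouse, the interaction of type and genotype had an edgeR FDR of 0.0136 for *Ntf3*, as 1.5% of 15499 genes had one below 0.05. It was 0.226 for *Bdnf*, 0.256 for *Ntrk2* and 0.442 for *Ntrk3*. The FDR of *Ntf3* was 0.397 without mutant replicate 2, 0.643 without control replicate 1 and 0.976 without the term for the mouse, so the call rested on these libraries and on that term.

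**Figure D4:**
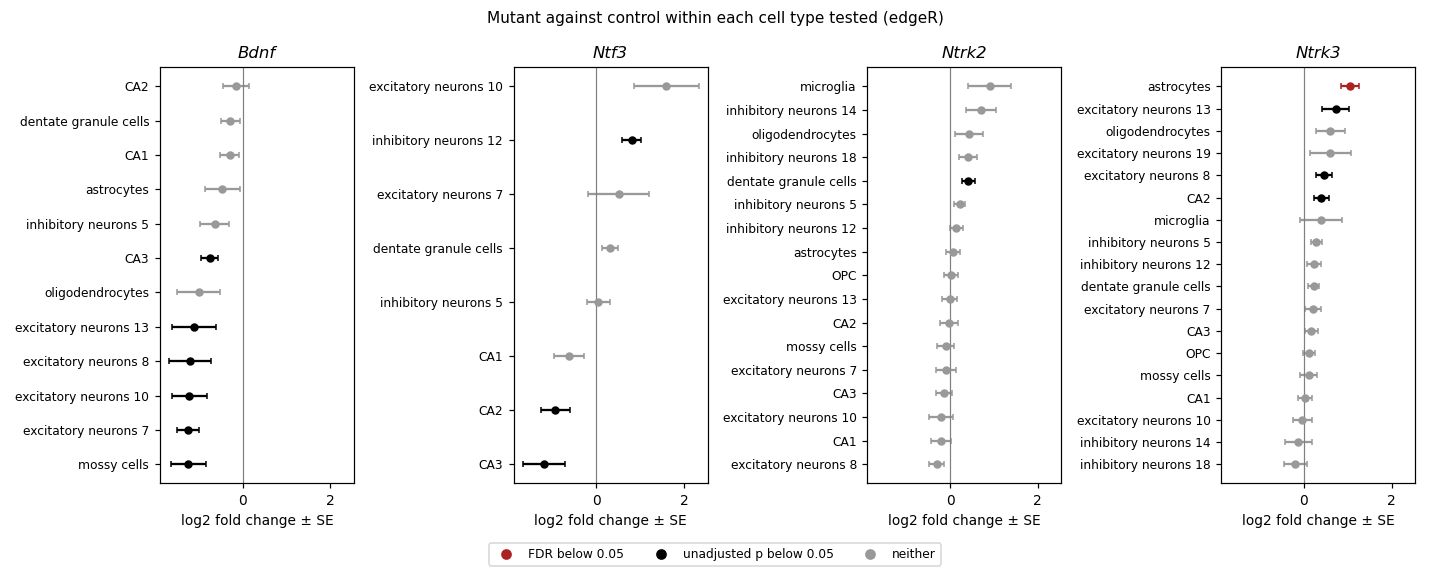
Log2 fold change of mutant against control (edgeR, points, with bars of 1 SE) of 4 members in each cell type where it could be tested, coloured by whether the FDR or only the unadjusted p was below 0.05. *Bdnf* is lower in all 12 types, *Ntf3* lies from -1.19 in CA3 to 1.60 in excitatory neurons 10, and *Ntrk3* in astrocytes (1.05) is the only value with FDR below 0.05.

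*Ntrk3* in astrocytes was the single value within a type that passed the limits. It was at 155 and 179 CPM in mutants against 78.7 and 89.7 CPM in controls, with no overlap (log2 fold change 1.05, SE 0.205, edgeR FDR 0.0282), and 0.131% of genes tested in astrocytes passed as higher. It rested on 54 and 449 UMIs in mutants and 88 and 185 in controls, from 167, 939, 491 and 570 nuclei. An *Ntrk3* UMI was present in 24.0% and 32.4% of mutant astrocytes and 10.8% and 22.5% of control astrocytes, and after thinning to 1500 UMIs in 16.8% and 19.5% against 7.94% and 10.5%. The shares thus stayed apart at equal depth. In oligodendrocytes the thinned shares were 2.74% and 8.09% against 4.31% and 4.37%, and the levels, at 21.5 and 53.7 CPM against 31.4 and 33.0 CPM, overlapped.

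Other markers in the astrocyte nuclei lay both above and below those of controls. The 4 CA1 markers summed to 135 and 100.2 CPM in mutants against 73.3 and 60.2 CPM in controls, higher without overlap, as *Ntrk3* was, while the summed excitatory markers were at 91.7 and 177 CPM in mutants against 240 (240.5) and 239.6 CPM in controls, and the dentate granule markers at 20.1 and 17.9 CPM against 39.3 and 38.8 CPM. Of the excitatory markers, *Nrgn* was at 31.5 and 102 CPM in mutants against 177 and 175 CPM in controls. *Slc17a7* and *Neurod2* had groups that overlapped, and *Slc17a6* was higher, at 5.73 and 2.78 CPM against 0.894 and 1.94 CPM. The 4 astrocyte markers summed to 3690.4 and 3891 CPM against 4689 and 4304 CPM, lower without overlap. Among them *Slc1a3*, for a glutamate transporter, was at 2307 and 2750.3 CPM against 2892 and 2996 CPM, *Aldh1l1* was higher, at 143 and 117 CPM against 87.6 and 104 CPM, and *Gja1* (805 and 626 against 1218 and 781 CPM) and *Aqp4* (436 and 398 against 492 and 424 CPM) had groups that overlapped. The part of these in the *Ntrk3* value was not tested. The FDR of *Ntrk3* in astrocytes was 0.403 without mutant replicate 2, 0.879 without control replicate 1 and 0.338 without control replicate 2, while the log2 fold change stayed between 0.89 and 1.19.

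Over types, *Ntrk3* in controls was highest in granule cells at 993 and 1051 CPM, followed by mossy cells at 762 and 839 CPM, CA1 at 758 and 815 CPM, excitatory neurons 10 at 777 and 788 CPM and oligodendrocyte precursors at 845 and 719 CPM, of which all but the granule cells overlapped. It was lowest in excitatory neurons 13 (24.8 and 25.0 CPM), oligodendrocytes and microglia. Mutants were above controls without overlap in 9 of the 18 types and below in none, against 18.0% of pairs of gene and type for higher values. These included granule cells at 1203 and 1178.5 CPM (log2 fold change 0.22, FDR 0.453), CA2 at 707 and 599 CPM against 499 and 536 CPM (0.40, FDR 0.532) and excitatory neurons 8 at 504 and 450.1 CPM against 369 and 343 CPM (0.46, FDR 0.492). Of the 9, astrocytes passed the FDR, and over all nuclei *Ntrk3* did not differ beyond its error.

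*Ntrk2*, for TrkB, was highest in astrocytes and in inhibitory types. In controls it was at 969 and 1025 CPM in astrocytes, 876 and 958 CPM in inhibitory neurons 12, 699 and 927 CPM in inhibitory neurons 18, 769 and 711 CPM in excitatory neurons 8 and 621 and 680.3 CPM in inhibitory neurons 5, against 287 and 295 CPM in granule cells and 42.6 and 36.9 CPM in oligodendrocytes. Astrocytes were above inhibitory neurons 12 and excitatory neurons 8 above inhibitory neurons 5 without overlap, and the values of inhibitory neurons 18 overlapped those of both its neighbours. Between genotypes astrocytes overlapped, at 888 and 1121 CPM in mutants (log2 fold change 0.07). In granule cells *Ntrk2* was at 367 and 401 CPM, above both controls (log2 fold change 0.41, SE 0.152, edgeR FDR 0.225). Of 17 types tested, 8 were lower and 9 higher, and no type passed the FDR.

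*Ngfr* gave 8 and 39 UMIs in the mutant snRNAseq libraries and 6 and 23 in the controls, of which 16 of 76 were in inhibitory neurons 14, 13 in excitatory neurons 13, 9 in inhibitory neurons 5 and 7 each in excitatory neurons 10 and oligodendrocytes. No type could be tested. In inhibitory neurons 14 it was at 0 and 13.97 CPM in controls and 0 and 10.6 CPM in mutants.

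**Figure D5:**
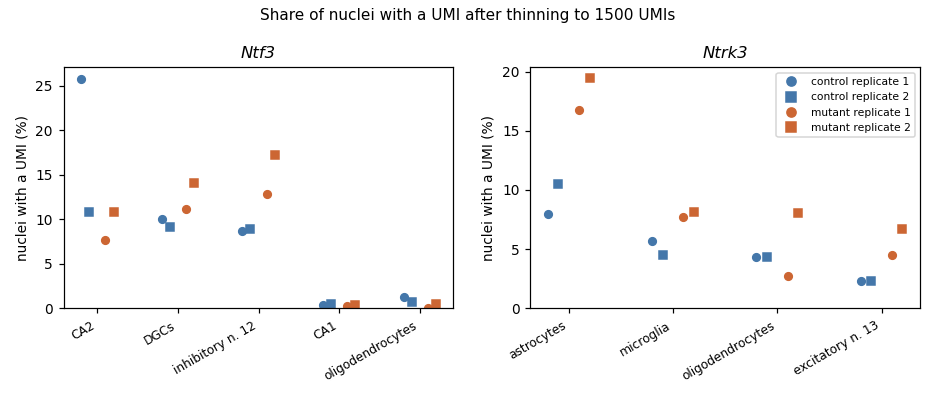
Percent of nuclei with a UMI of *Ntf3* or *Ntrk3* after every nucleus was thinned to 1500 UMIs (linear axis), in each mouse. *Ntf3* is shown in CA2, granule cells, inhibitory neurons 12, CA1 and oligodendrocytes, and *Ntrk3* in astrocytes, microglia, oligodendrocytes and excitatory neurons 13. *Ntrk3* in astrocytes is at 16.8% and 19.5% in mutants and 7.94% and 10.5% in controls, and *Ntf3* in CA2 at 7.69% and 10.8% in mutants and 25.7% and 10.8% in controls.

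The genes whose control levels over the 18 types were most like those of each member, among 12418 genes, were *Rtn4rl2*, *Cerkl* and *Pcnx* for *Bdnf* (Pearson r 0.88 to 0.84 over types), *Gpr12*, *Sag* and 2300009A05Rik for *Ntf3* (0.87 to 0.75), Gm47423, *Astn1* and *Nol4* for *Ntrk2* (0.96 to 0.95), Gm45868, *Telo2* and Gm48003 for *Ntrk3* (0.93 to 0.85) and *Slc19a3*, *Specc1l* and *Slc6a20b* for *Ngfr* (0.81 to 0.77). Gm47423 is antisense to *Ntrk2* and overlaps it. The points are types of the same 2 control libraries, and the members were little alike among themselves, with r between -0.21 and 0.44.

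The wider pathway was described by 103 other genes, of which 99 were tested in bulk. In bulk 0 were higher and 2 lower at an edgeR FDR below 0.05, against 0.198% and 1.01% of all genes, and by edgeR and by DESeq2 0 passed the 3-fold limit as well. Unadjusted p fell below 0.05 for 9 higher and 23 lower genes of the 99, against 8.86% and 9.94% of all genes, and by DESeq2 21 passed the FDR, among 1590 genes in all. The list's median log2 fold change was -0.03, beside 0.01 for all genes. *Mef2c*, for a transcription factor that takes part in activity-dependent *Bdnf* transcription, fell from 65.8 and 61.4 TPM in controls to 28.1 and 31.9 TPM in mutants (log2 fold change -0.93, SE 0.0554, FDR 0.0135). *Rps6ka2*, for a ribosomal S6 kinase under ERK, fell from 28.4 and 27.7 TPM to 18.8 and 20.0 (20.04) TPM (log2 fold change -0.45, SE 0.0476, FDR 0.0287).

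By role, of the 9 other ligands and receptors tested, 2 were higher and 2 lower at an unadjusted p below 0.05 (44.4%, against 18.8% of all genes) and none passed the FDR. *Ntf5* (log2 fold change -0.21) and the proneurotrophin receptors *Sort1* (0.06), *Sorcs1* (-0.01), *Sorcs2* (-0.14) and *Sorcs3* (0.32, FDR 0.169) did not pass it. Nor did the receptor partners *Lingo1* (0.23), *Rtn4r* (-0.20) and *Nradd* (-0.76). Among enzymes that cleave the proforms, *Pcsk5* had a log2 fold change of -0.81 (FDR 0.10). Among adaptors *Irs1* was at -0.55 and *Sh2b2* at 0.53, and among kinases and effectors *Prkcd* was at -0.84 (FDR 0.0584) and *Plcg2* at -0.62 (FDR 0.118). Among transcriptional regulators *Creb1* was at -0.33, and among genes induced by activity *Nr4a1* was at 0.60 and *Dusp4* at -0.49, none of them past the FDR. Of the 29 kinases and effectors, 10 were lower and 2 higher at such a p (41.4%, against 18.8% of all genes), with a median of -0.12, and of the 12 transcriptional regulators 5 were lower (41.7%).

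Within cell types, 1 of 1329 pairs of pathway gene and type passed the limits, against 0.19% of all pairs of gene and type. *Shc3*, for an adaptor of Trk receptors in neurons, rose in granule cells from 11.3 and 8.48 CPM in controls to 19.3 and 30.9 CPM in mutants (log2 fold change 1.53, SE 0.287, edgeR FDR 0.0343), where 0.827% of genes tested in granule cells passed as higher. The mutant values came from 90 and 463 granule cell nuclei. Mutant replicate 1 held 414115 UMIs of all genes there, so 3 UMIs make 7.24 CPM and its *Shc3* value rests on few UMIs. *Pcsk5*, for a proprotein convertase, rose in the same cells from 139 and 122 CPM to 256 and 254 CPM (log2 fold change 0.97, SE 0.161, FDR 0.0233), just under the 2-fold limit, while in the bulk hippocampus its value was negative. Unadjusted p was below 0.05 in 3.16% of pairs with mutants higher and 5.79% with mutants lower, beside 4.48% and 4.82% of all pairs of gene and type.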

How the data were processed

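Bulk RNA-seq and 10x snRNAseq each covered 2 mutant and 2 control mice. The authors aligned bulk reads to mm10 with RSEM 1.3.0 and Bowtie2 2.2.9 and deposited an expected count and TPM per gene. They also deposited a normalised matrix, whose signal is the expected count after division of each library by its own size factor. For snRNAseq the authors deposited a UMI count matrix per library (Cell Ranger 3.1.0) and other tables with the cell type label of each nucleus. Whether doublets were removed is not given in the sources used here, and no caller was run. Expected counts were rounded, genes filtered by filterByExpr, TMM-normalised and tested with edgeR 4.0.16 (quasi-likelihood, Benjamini-Hochberg, called FDR) in R 4.3.3. UMIs were summed over the nuclei of a label in each mouse and tested likewise, leaving out labels that had under 10 nuclei in any library. SE is the log2 fold change divided by the square root of F. The interaction model held a term per mouse. Calls followed the study's limits, a fold above 3 in bulk and above 2 in snRNAseq with FDR below 0.05. The study's own tests, EBSeq in bulk and a Monocle 3 regression in snRNAseq, were not run. DESeq2 1.42.0, and limma 3.58.1 on log2(value + 1) of the deposited TPM and of the authors' matrix, were alternatives, with other filters, scalings, thinned nuclei, the replicate block and each library left out. Where 1 library remained in a group, it was taken to vary like the others.

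The members and lists were chosen with earlier results of these data known. Named genes were the members, every other ligand and receptor, the 2 genes with the largest bulk change and no overlap in each other role, every called list gene, and the 3 genes most like each member, of which some are not reported here. Markers were 4 genes per cell type, summed in CPM or TPM. On simulated counts the bulk fit found 100% of genes changed 3-fold among 20393, and the astrocyte and granule cell fits 65% and 61.5% of those changed 2-fold among 11144 and 14661. False calls numbered 7, 6 and 4 in that order. The simulation gave every gene the same fixed dispersion and changed only more abundant genes. Its shares therefore do not give the power for real mice or for low genes such as *Ngfr*. Intervals on shares cover counting error only. Each library is a separate mouse, with 2 per genotype. The error in edgeR is pooled over both genotypes and moderated over genes, so its p-values do not rest on the spread of a gene's own values alone. Promoters are from RefSeq, where 4 of the 5 members matched by symbol.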

Additional observations from a re-analysis of the deposited data

Results flagged for a closer look

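The difference of the genotype effect on *Ntf3* between cell types was singled out because a direct test of it, the interaction of cell type and genotype, passed with an edgeR FDR of 0.0136. *Ntf3* was above both controls in mutant granule cells (log2 fold change 0.31) and inhibitory neurons 12 (0.80) and below both in CA2 (-0.94) and CA3 (-1.19), and none of these passed the FDR by itself. In thinned CA2 nuclei, mutant replicate 2 and control replicate 2 were both at 80.3 CPM, so the groups there were not apart at equal depth.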

How the results depend on the processing

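Of 369 alternative values, 4 turned direction. *Ntrk2* over all nuclei turned to -0.023 without mutant replicate 2 and to -0.050 without granule nuclei, *Ntrk3* over all nuclei to 0.11 without granule nuclei, and *Bdnf* in granule cells to 0.10 without mutant replicate 2.

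The labels give same-numbered mice nothing in common but the number, although in bulk the *Xist* and *Ddx3y* reads also divide the libraries by it. With 2 pairs, the correlation of same-numbered deviations was 0.0644 in bulk and 0.0349 to 0.392 in types. With a replicate block the bulk *Ntf3* effect was -1.53 (FDR 0.0602), and over all nuclei *Bdnf* was -0.88 (FDR 0.0145) and *Ntf3* -1.23 (FDR 0.0298). The block gave 2 called pairs of member and type and 16 of pathway gene and type. Without its block, the term for each mouse, the *Ntf3* interaction FDR was 0.976. DESeq2 gave 0.20 for bulk *Ntrk2*, -0.87 for *Bdnf* and -1.20 for *Ntf3* over all nuclei, and 3 pathway pairs. Without the filter on low counts 4 member pairs and 16 pathway pairs were called, and the *Bdnf* interaction FDR was 0.0473. Without the 5% of nuclei with most UMIs 2 pathway pairs were called. At any fold, 1 member and 2 pathway genes passed in bulk, and 1 member above 2-fold. *Bdnf* in mossy cells was at 143 CPM in thinned control nuclei, beside 115 CPM.

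With each library left out, bulk *Ntf3* ranged from -1.60 to -1.46, bulk *Ntrk3* from -0.24 to -0.11 (FDR 0.0487 without mutant replicate 1), and *Ntrk3* in astrocytes from 0.89 to 1.19. *Ntrk2* over all nuclei ranged from -0.023 to 0.24 and *Bdnf* in granule cells from -0.48 to 0.10. The *Ntf3* interaction FDR ranged from 0.000341 to 0.643, called member pairs from 0 (without mutant replicate 2) to 4 (without mutant replicate 1), with 3 without control replicate 2, and pathway pairs from 3 to 30. Of single pairs not called in the report, 16 alternatives passed the FDR. The cause of these shifts was not tested. Thinned nuclei were not run for the pathway list. With 76 UMIs of *Ngfr* in all, differences between types were not detectable at this depth.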
